A study of Mus musculus with 13 samples.

Results

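The genes described here are 47 homeobox patterning genes, taken by family and name from outside the Hox, Nkx, Dlx and Pax groups. All 47 were found among the 21951 protein-coding genes of GENCODE release M21. They were grouped as 12 LIM homeodomain genes, 6 Iroquois genes, 5 Six-family genes, 8 genes of anterior-posterior regions, 6 genes of dorsoventral domains, 7 genes of neuron specification and 3 TALE and POU genes. The group names are broad labels and need not describe every gene in them. For each gene, the called peaks of H3K4me3 and H3K27me3 within 2 kb of any transcription start site (TSS) gave its chromatin state at each stage, and OLIG2 called peaks were looked for in the gene and the 5 kb upstream of it.

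The study followed the oligodendrocyte lineage in the mouse over 3 stages, neural stem cells (NSCs), oligodendrocyte precursor cells (OPCs) and newly formed oligodendrocytes (NFOs), all untreated. Per the study's methods, NSCs came from the embryonic (E14.5) cortex of CD-1 mice and were cultured with EGF and FGF, while the labels give C57BL/6 for every sample. OPCs and NFOs were isolated from postnatal day 7 brains of C57BL/6 mice by immunopanning, with antibodies to PDGFRα for OPCs and to GalC for NFOs. ChIP-Seq, which sequences the DNA pulled down with a given protein or histone mark, was represented by 6 histone libraries and 2 OLIG2 libraries, 1 library per cell type and target. The NSCs therefore differ from the other 2 cell types in culture, in age and possibly in strain as well as in stage, and these cannot be told apart.

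Homeobox genes encode transcription factors, many of which divide the embryonic neural tube into regions and assign neurons their type. In cells that do not use them they are classic targets of the Polycomb complexes, which deposit H3K27me3 over broad domains, whereas H3K4me3 marks promoters that are active or ready for use. A promoter that carries both marks is called bivalent, and bivalent promoters are typical of developmental regulators in stem cells.

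Every count below rests on 1 library, so no test between stages was run and no value has an error between replicates. The lists held from 12688 to 36069 histone peaks and 7384 or 16911 OLIG2 peaks per library, and the number of reads behind them is unknown. The antibody entries for H3K4me3 and H3K27me3 are exchanged between samples in the labels, and the titles were followed. In the data titled H3K4me3, all 4 NSC markers carried a peak in NSCs and all 4 OPC markers carried H3K4me3 alone in OPCs. Sox2, Hes5 and Pdgfra, however, had H3K4me3 alone at every stage and Cspg4 already in NSCs, so these markers did not separate the stages. Of the NFO markers, Cnp carried H3K4me3 at every stage, whereas Mbp, Mog and Mag had no peak of either mark in NFOs. Mbp had H3K4me3 alone in NSCs and OPCs. Of the 3 microglial markers none had a peak, except Csf1r with H3K4me3 in OPCs, and of the 3 neuronal markers Snap25 and Syt1 carried H3K4me3 at all stages and Rbfox3 was bivalent, mixed and then under H3K27me3 alone. Of the 3 astrocyte markers Aqp4 had no peak, and Gja1 and Aldh1l1 had H3K4me3 alone in NSCs and no H3K4me3 in NFOs. The peak names mark NSC reads as single and OPC and NFO reads as paired, so widths and coverage at different stages are not on 1 scale and are given side by side. Over all coding genes the median of the widest H3K4me3 peak was 2161, 1369 and 579 bp in the order NSC, OPC and NFO, and that of the widest H3K27me3 peak 688, 665 and 892 bp.

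H3K27me3 lay at most of these genes at every stage. In NSCs 37 of the 47 members (78.7%) had an H3K27me3 peak near a TSS, against 15.1% of all protein-coding genes. In OPCs 42 members (89.4%) had one, against 16.4%, and in NFOs 40 members (85.1%), against 9.56%. The mark was present at all 3 stages in 34 members (72.3%), against 4.49% of coding genes. These counts used all listed peaks. With the filter on histone peaks that the study's methods state (FDR below 0.05 and fold enrichment above 3.5) the counts were 32, 42 and 39. The NSC peaks of Lhx2, Irx2, Irx5, En2 and Gsx2 and the NFO peak of Meis1 did not pass. Outside the group of 34 members with the mark at all stages were 13, namely Irx6, Six4, Six5, Otx1, Gbx2, Pitx3, Gsx1, Gsx2, Dbx2, Phox2a, Meis1, Meis2 and Pou3f2.

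H3K4me3 became less frequent at each stage, as it did over all coding genes. A peak near a TSS was called at 43 members in NSCs (91.5%, against 64.3% of coding genes), 40 in OPCs (85.1%, against 60.7%) and 30 in NFOs (63.8%, against 43.6%). With the same filter as above the counts were 41, 39 and 25, against 62.7%, 60.4% and 38.6% of coding genes. Those that did not pass were the NSC peaks of Lmx1a and Lmx1b and the OPC peak of Barhl1. In NFOs they were those of Irx3, Isl2, Gsx2, Dbx2 and Tlx3. With peaks of a fold enrichment above 5 only, the OPC share of members was 46.8%, against 49.1% of coding genes. Both marks were present at 33 members in NSCs (70.2%, against 11.8%), 35 in OPCs (74.5%, against 11.2%) and 25 in NFOs (53.2%, against 4.67%). A gene with both marks was called bivalent when every one of its peaks near a TSS overlapped a peak of the other mark, and mixed when at least 1 peak stood alone.

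By that rule 23 members were bivalent in NSCs (48.9%, against 4.81% of coding genes), 11 in OPCs (23.4%, against 2.71%) and 7 in NFOs (14.9%, against 1.25%). Of the 23, 7 were still bivalent in OPCs, 10 were mixed, 5 had H3K27me3 alone and Gsx1 had H3K4me3 alone. Counting every gene with at least 1 bivalent domain, the numbers were 30, 29 and 22, against 8.57%, 5.45% and 2.90% of coding genes. H3K27me3 alone was found at 4 members in NSCs (against 3.29% of coding genes), 7 in OPCs (5.17%) and 15 in NFOs (4.89%). H3K4me3 alone was found at 10, 5 and 5 members, against 52.5%, 49.5% and 38.9% of coding genes. No member was without a peak in NSCs or OPCs and only Six4 and Six5 were in NFOs, whereas 32.4%, 34.1% and 51.6% of coding genes were without a peak at the 3 stages.

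**Figure D1:**
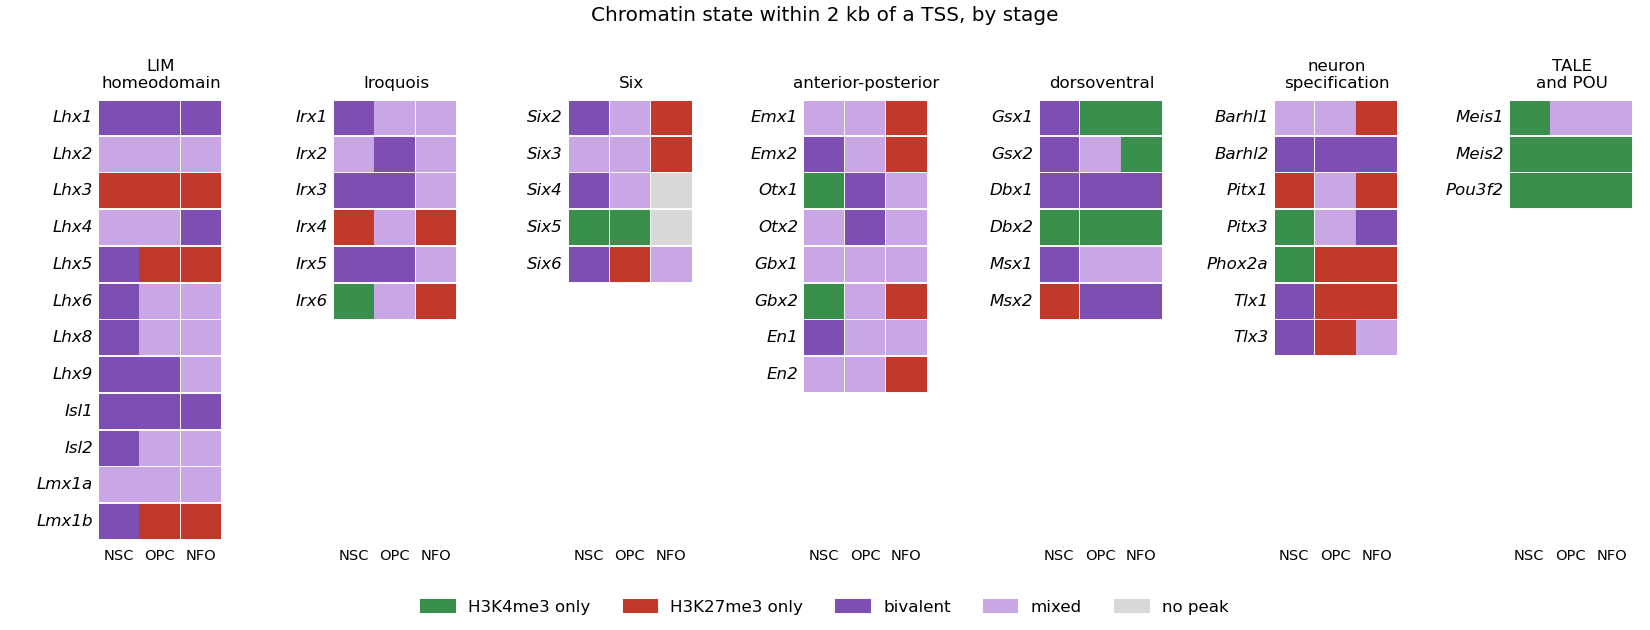
Chromatin state of each of the 47 members (rows, by family) in NSCs, OPCs and NFOs (columns), from called peaks within 2 kb of a TSS. Green (H3K4me3 alone) is found at 10 members in the NSC column and at all stages of Meis2 and Pou3f2, and red (H3K27me3 alone) is found at 15 members in the NFO column.

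The state was the same at all 3 stages in 11 members (23.4%), against 60.0% of coding genes, many of which had no peak or H3K4me3 alone. Of the bivalent NSC genes, 4 of 23 members and 122 of 1056 coding genes were bivalent in NFOs. For mixed genes it was 5 of 10 and 199 of 1533, and for H3K27me3 alone 3 of 4 and 115 of 723. With H3K4me3 alone it was 3 of 10 members and 7131 of 11525 coding genes. Lhx1, Isl1, Barhl2 and Dbx1 were bivalent at every stage, Lhx2, Gbx1 and Lmx1a were mixed at every stage, Lhx3 had H3K27me3 alone, and Dbx2, Meis2 and Pou3f2 had H3K4me3 alone. The other 36 members changed state at least once and are described below by family. With the filter on histone peaks 8 members kept the same state (17.0%, against 61.6% of coding genes). Dbx2, Lhx2, Gbx1 and Lmx1a were then no longer among them, and Lmx1b was.

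**Figure D2:**
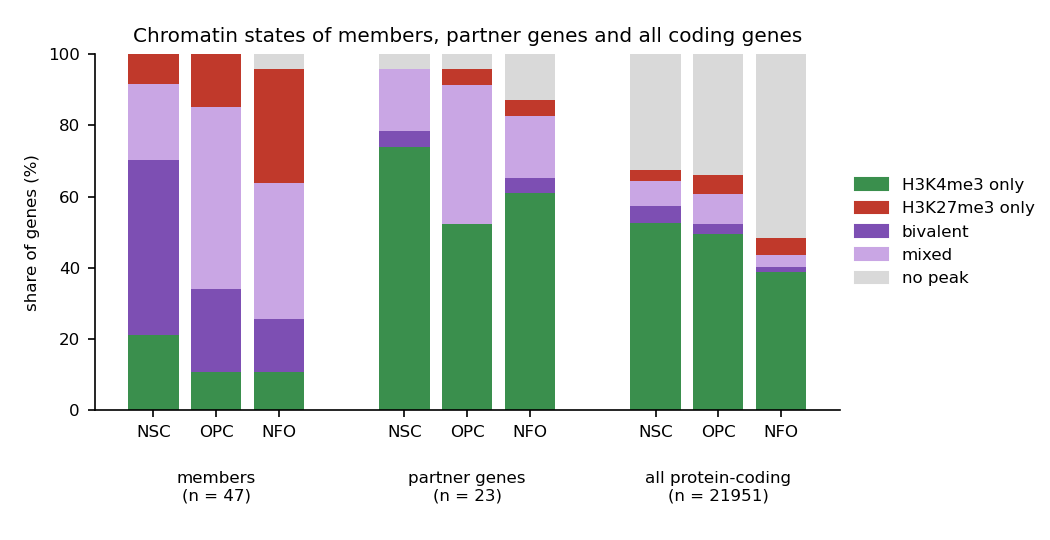
Share of genes in each chromatin state (vertical axis, percent) in NSCs, OPCs and NFOs for the 47 members, for 23 genes that encode partners of homeobox factors and for all 21951 protein-coding genes. The members carry both marks in 70.2%, 74.5% and 53.2% of cases, and the coding genes in 11.8%, 11.2% and 4.67%.

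Promoter sequence was described for the members because their promoters differ in CpG content, the feature that Polycomb targets in the genome often share. In the 1000 bases around the 5′ end of the gene, the ratio of observed to expected CpG had a median of 0.694 over the members and 0.553 over 21938 coding genes. It was above 0.6 in 41 of 47 members and in 46.0% of the coding genes. By state in NSCs, the median was 0.718 in the 23 bivalent members and 0.680 in bivalent coding genes, and 0.717 and 0.683 in mixed genes. With H3K4me3 alone it was 0.698 in 10 members and 0.722 in coding genes, and with H3K27me3 alone 0.655 in 4 members and 0.227 in 723 coding genes. The lowest ratios among members were those of Lhx4 (0.0885), Isl2 (0.145), Dbx2 (0.190) and Lhx3 (0.294), each taken at the 5′ end of the longest gene record.

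The 250 bases before the RefSeq start are shown for 4 members with 4 different patterns of marks over these bases, with every CG in capitals, read on the strand of the gene from the RefSeq table (build GRCm38.p6). RefSeq promoters were held for 39 of the 47 members, with a median of 16 CG pairs in these 250 bases, against 6 over the promoters of 27025 genes. Pou3f2 (chr4:22488367-22488616, minus strand) has 18 and carried H3K4me3 over it in NSCs. Gsx1 (chr5:147188446-147188695, plus strand) has 15 and carried H3K4me3 over it at all 3 stages and H3K27me3 at none. Barhl2 (chr5:106458167-106458416, minus strand) has 36 and carried both marks over it at all 3 stages. Lhx9 (chr1:138842445-138842694, minus strand) has 4 and carried H3K27me3 over it at all 3 stages and H3K4me3 at none. The Lhx9 window lies at an internal TSS, and the gene as a whole was bivalent in NSCs and OPCs and mixed in NFOs.
Pou3f2: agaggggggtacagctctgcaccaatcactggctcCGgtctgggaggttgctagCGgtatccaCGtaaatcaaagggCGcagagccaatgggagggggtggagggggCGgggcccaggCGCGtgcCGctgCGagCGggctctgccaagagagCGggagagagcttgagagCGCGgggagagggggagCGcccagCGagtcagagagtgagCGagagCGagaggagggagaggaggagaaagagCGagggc
Gsx1: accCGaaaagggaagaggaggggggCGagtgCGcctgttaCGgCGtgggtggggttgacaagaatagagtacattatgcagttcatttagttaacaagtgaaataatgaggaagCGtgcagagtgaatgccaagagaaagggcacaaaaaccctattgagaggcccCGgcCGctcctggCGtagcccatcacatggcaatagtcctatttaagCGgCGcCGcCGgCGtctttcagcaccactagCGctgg
Barhl2: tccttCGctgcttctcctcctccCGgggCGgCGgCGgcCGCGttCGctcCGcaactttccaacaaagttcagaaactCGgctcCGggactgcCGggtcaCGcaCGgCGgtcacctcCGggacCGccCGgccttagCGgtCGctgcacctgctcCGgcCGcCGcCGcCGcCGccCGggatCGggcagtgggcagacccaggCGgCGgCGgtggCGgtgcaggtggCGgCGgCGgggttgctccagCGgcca
Lhx9: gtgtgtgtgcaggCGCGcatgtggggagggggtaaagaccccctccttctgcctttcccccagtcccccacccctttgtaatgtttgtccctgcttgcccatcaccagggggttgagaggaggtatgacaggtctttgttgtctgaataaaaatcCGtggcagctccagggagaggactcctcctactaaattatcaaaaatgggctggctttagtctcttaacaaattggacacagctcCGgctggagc

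The LIM homeodomain genes, which specify motor neurons, interneurons and midbrain dopaminergic neurons, all carried H3K27me3 at every stage (12 of 12). Lhx1 and Isl1, which act in spinal interneurons and motor neurons, kept a wide domain and a narrow H3K4me3 peak inside it. The widest H3K27me3 peak at Lhx1 spanned 18261, 18967 and 13314 bp at the 3 stages, in the order of the lineage, and its H3K4me3 peak 1077, 1087 and 261 bp. At Isl1 the H3K27me3 peak spanned 11967, 23527 and 16871 bp, and the widest H3K4me3 peak 1857, 1863 and 179 bp. At both genes the fold enrichment of H3K27me3 was highest in OPCs (7.09 at Lhx1 and 6.06 at Isl1).

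Lhx5 and Lmx1b had no H3K4me3 peak near a TSS after the NSC stage and kept H3K27me3. At Lhx5, H3K4me3 farther out covered 4.91% of the 10 kb around its 5′ end in OPCs and 2.76% in NFOs. Lhx5, a gene of hippocampal and interneuron development, had a 349 bp H3K4me3 peak (fold enrichment 6.49) within 17323 bp of H3K27me3 in NSCs, and its widest H3K27me3 peak was 6252 bp in OPCs and 8732 bp in NFOs. Lmx1b, a regulator of midbrain dopaminergic and serotonergic neurons, had a 162 bp H3K4me3 peak of low enrichment (3.17) in NSCs, and H3K27me3 peaks of up to 22014, 11602 and 13812 bp at the 3 stages. Its paralog Lmx1a stayed mixed, with H3K27me3 peaks of up to 8291, 8962 and 7941 bp. Lhx3, a motor neuron and pituitary factor, had no H3K4me3 peak at any stage, and its widest H3K27me3 peak spanned 4789, 6917 and 8943 bp.

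Lhx6 and Lhx8, which act in forebrain interneurons and cholinergic neurons, Lhx9 and Isl2 changed from bivalent to mixed. Lhx6 had 1 H3K27me3 peak of 21858 bp in NSCs, 5 peaks of up to 3091 bp in OPCs and 3 of up to 9193 bp in NFOs. The widest H3K27me3 peak spanned 15314, 10746 and 8049 bp at Lhx8, 25108, 13176 and 7319 bp at Lhx9, and 11724, 7634 and 6689 bp at Isl2. In each of the 4 genes the NSC list held a single peak and the NFO list held 2 or more, so that parts of the domain stood apart from H3K4me3. 

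Lhx2 and Lhx4 departed from the other LIM genes. Lhx2, a selector gene of the cortex, had in NSCs a single H3K27me3 peak of 346 bp (fold enrichment 3.17), which covered 3.46% of the 10 kb around its 5′ end, and the covered share was 45.5% in OPCs and 61.0% in NFOs. Its widest H3K4me3 peak measured 1878, 1886 and 245 bp. Lhx4, a paralog of Lhx3, had in OPCs and NFOs the H3K4me3 peaks with the highest fold enrichment of any member, 20.9 over 1844 bp and 28.2 over 326 bp, against 9.03 over 3235 bp in NSCs. Its widest H3K27me3 peak was 19963, 5252 and 3858 bp at the 3 stages. The H3K27me3 fold enrichment was also the highest of any member in OPCs (14.3 over 1513 bp) and NFOs (7.53 over 304 bp). These narrow H3K27me3 peaks began within a few bases of a narrow H3K4me3 peak (180 bp in OPCs, 243 bp in NFOs). Such a shared edge was not particular to Lhx4, since in NFOs peaks of both marks also began at the same base at Lhx8 and at Irx5. The reason for this was not tested.

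The Iroquois genes, which lie in a cluster on chromosome 13 (Irx1, Irx2 and Irx4) and another on chromosome 8 (Irx3, Irx5 and Irx6), pattern the neural plate and later the heart and spinal cord. All 6 had H3K27me3 in OPCs and NFOs and 5 in NSCs. Coverage of the 10 kb around the 5′ end by H3K27me3 was higher in OPCs than in NSCs at 5 of the 6 genes. At Irx5 the covered share was 14.7%, 89.4% and 55.2% at the 3 stages, at Irx2 9.45%, 78.4% and 49.6%, and at Irx3 16.2%, 60.7% and 54.0%. Irx1, whose NSC peak already spanned 9684 bp, went the other way, with 83.3%, 62.7% and 49.9%.

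Irx6 had H3K4me3 alone in NSCs (1148 bp), a 480 bp H3K4me3 peak with a 220 bp H3K27me3 peak in OPCs, and H3K27me3 alone (770 bp) in NFOs. Irx4 had H3K27me3 alone in NSCs (10809 bp) and in NFOs (4333 bp), with a 737 bp H3K4me3 peak at its TSS in OPCs only. The other 4 genes had H3K4me3 at all stages. The widest H3K4me3 peak was 7321, 3205 and 749 bp at Irx5, 4650, 6292 and 1385 bp at Irx1, 3835, 2763 and 1328 bp at Irx2, and 2870, 1837 and 842 bp at Irx3. The neighbouring Irx genes are 317 to 665 kb apart, and no peak near a TSS was shared by 2 members.

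The Six-family genes act in eye, head and muscle progenitors with the Eya and Dach cofactors, and each had a different course. Six6, an eye and pituitary gene, lay in an H3K27me3 peak of 23876 bp in NSCs and 10526 bp in OPCs, lost its 1368 bp H3K4me3 peak in OPCs and had a 185 bp one in NFOs. Six2 and Six3, which lie 74.7 kb apart on chromosome 17, ended with H3K27me3 alone in NFOs. Six3, an early forebrain and eye gene, had an H3K4me3 peak of 12076 bp in NSCs, among the 18 widest of 14114 coding genes, one of 1180 bp in OPCs and none near a TSS in NFOs. The H3K4me3 peak of Six2 was 1898 bp in NSCs, 725 bp in OPCs and absent near a TSS in NFOs, while H3K27me3 covered the whole of its 10 kb in NSCs and 87.4% and 92.1% at the later stages.

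Six4 and Six5 were the only members without any peak near a TSS in NFOs. Six4 was bivalent in NSCs, with H3K4me3 over 2955 bp and H3K27me3 over 4028 bp, and in OPCs the peaks were 1542 and 2051 bp and no longer overlapped. Six5 had H3K4me3 alone, 2974 bp in NSCs and 453 bp in OPCs.

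The genes of anterior-posterior regions, which mark the cortex (Emx1, Emx2), the forebrain and midbrain (Otx1, Otx2), the isthmus and hindbrain (Gbx1, Gbx2) and the midbrain-hindbrain junction (En1, En2), all had H3K27me3 in OPCs and NFOs (8 of 8) and 6 had it in NSCs. In NSCs H3K4me3 covered more of the 10 kb than H3K27me3 at Otx1, Emx2, Gbx2 and En2, and less at Emx1, Otx2, Gbx1 and En1. At Otx2 this window, centred on the 5′ end, left out NSC peaks at other TSSs. They were 5718 bp wide for H3K4me3 and 3986 and 1643 bp wide for H3K27me3. Otx1 had an H3K4me3 peak of 6577 bp and no H3K27me3 peak in NSCs, a 956 bp H3K27me3 peak in OPCs and an 806 bp one in NFOs, where its widest H3K4me3 peak was 1032 bp. Emx2 had an H3K4me3 peak of 5878 bp in NSCs and 4187 bp in OPCs and none near a TSS in NFOs, while H3K27me3 covered 6.66%, 37.5% and 34.3% of its 10 kb.

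Emx1 was covered by H3K27me3 in NSCs over 97.5% of its 10 kb, against 39.1% in OPCs and 33.0% in NFOs. Its 1306 bp H3K4me3 peak of NSCs was followed by peaks of up to 1323 bp in OPCs, and none near a TSS in NFOs. Otx2 went from 23.2% H3K27me3 coverage in NSCs to 92.0% in OPCs, where 1 peak spanned 17478 bp, and 54.8% in NFOs. The 10 kb left out the NSC peaks at its other TSSs, so this rise does not describe the whole gene. The widest H3K4me3 peak of Otx2 was 5718, 835 and 225 bp.

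En1 carried the widest H3K27me3 peak of any member in NSCs, 26626 bp, with peaks of up to 9523 bp in OPCs and 6188 bp in NFOs. Its H3K4me3 peak at the TSS spanned 1829, 854 and 584 bp, with a fold enrichment of 6.49, 9.56 and 12.8. En2 differed from it in NSCs, with a 492 bp H3K27me3 peak of low enrichment (3.20) and a 4991 bp H3K4me3 peak, and it had H3K27me3 peaks of up to 7134 bp in OPCs and 7593 bp in NFOs, where no H3K4me3 peak was left. Gbx2 had H3K4me3 alone near its TSS in NSCs (2470 bp) and H3K27me3 peaks of up to 4007 bp in OPCs and 5374 bp in NFOs. Gbx1 stayed mixed, with H3K27me3 peaks of up to 5019, 3582 and 2415 bp.

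The dorsoventral genes Gsx1 and Gsx2, which act in the ventricular zone of the ventral forebrain and in the dorsal spinal cord, were the only members with H3K27me3 in NSCs and H3K4me3 alone in NFOs. Gsx1 had an H3K4me3 peak of 4273 bp in NSCs and 5374 bp in OPCs and peaks of up to 1002 bp in NFOs. Its H3K27me3 peak near the TSS, 344 bp in NSCs, had no counterpart in OPCs or NFOs. Gsx2 had H3K4me3 peaks of 1323, 1647 and 512 bp and H3K27me3 peaks of 490 and 185 bp in NSCs and OPCs only. Its NSC H3K27me3 peak (fold enrichment 3.03) and its NFO H3K4me3 peak (3.49) did not pass the filter, which left this course to Gsx1 alone.

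Dbx1 and Dbx2, which mark interneuron progenitors in the middle of the spinal cord, both carried H3K4me3 at all stages and differed in H3K27me3. Dbx1 was bivalent at all stages within H3K27me3 peaks of 11974, 9820 and 6474 bp. Dbx2 had no H3K27me3 peak near a TSS at any stage and H3K4me3 peaks of 3131, 707 and 800 bp, although H3K27me3 farther out covered 14.1% and 11.6% of its 10 kb in OPCs and NFOs. The NFO H3K4me3 peak of Dbx2 (fold enrichment 3.25, FDR 0.0726) did not pass the filter. Msx1 and Msx2, roof plate and neural crest genes downstream of BMP, lay in H3K27me3 domains throughout. Msx1 had H3K27me3 peaks of up to 17800, 7888 and 7319 bp and H3K4me3 peaks of 2871, 1848 and 257 bp. Msx2 had no H3K4me3 peak near a TSS in NSCs, a 714 bp one in OPCs and a 209 bp one in NFOs. In NSCs H3K4me3 farther out covered 3.31% of the 10 kb of Msx2. Its H3K27me3 peaks spanned 6280, 17868 and 4753 bp.

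Among the genes of neuron specification, all 7 had H3K27me3 in OPCs and NFOs and 5 had it in NSCs. Phox2a, a determinant of noradrenergic neurons, had a single 250 bp H3K4me3 peak in NSCs (fold enrichment 3.61) and no H3K27me3, and in OPCs and NFOs it had H3K27me3 alone, over up to 4026 and 5102 bp. Pitx3, a gene of midbrain dopaminergic neurons, had H3K4me3 alone in NSCs (up to 2262 bp) and H3K27me3 peaks of up to 5774 bp in OPCs and 1452 bp in NFOs. Pitx1 had H3K27me3 of up to 18708, 8667 and 9739 bp and a single 895 bp H3K4me3 peak in OPCs.

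Tlx1 and Tlx3, which select the excitatory fate of dorsal spinal neurons, lost H3K4me3 after the NSC stage. Tlx1 had a 256 bp H3K4me3 peak in NSCs only and H3K27me3 of up to 18414, 10086 and 10731 bp. Tlx3 had in NSCs a 990 bp H3K4me3 peak of low enrichment (3.20), which did not pass the filter, and a 166 bp one (4.90), which did. It had none in OPCs and one of 722 bp and low enrichment (3.28) in NFOs. The H3K27me3 peaks of Tlx3 spanned up to 16861, 7317 and 3820 bp. Barhl1 and Barhl2, genes of cerebellar granule cells, dorsal interneurons and retinal neurons, both kept H3K27me3. Barhl2 had the widest H3K27me3 peak of any member in OPCs, 27521 bp, against 4186 bp in NSCs and 14959 bp in NFOs. H3K27me3 nevertheless covered 70.3%, 100% and 92.6% of the 10 kb around Barhl2 at the 3 stages. Its H3K4me3 peak at the TSS was 3214, 935 and 348 bp with a fold enrichment of 8.35, 7.40 and 13.6. Barhl1 had H3K27me3 of up to 8079, 8536 and 6243 bp and an H3K4me3 peak of 587 and 591 bp in NSCs and OPCs only.

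The TALE and POU genes stood apart from the other families, since none of the 3 had H3K27me3 in NSCs. Pou3f2, a POU factor of neural progenitors and upper-layer neurons, and Meis2, a TALE cofactor of Hox and Pax proteins, had the widest H3K4me3 peaks of all members in NSCs. The peak at Pou3f2 spanned 15272 bp, and 16 of 14114 coding genes had one at least as wide, while the peak at Meis2 spanned 12942 bp, with 17 such genes. In OPCs the widest peaks were 4792 and 7935 bp and in NFOs 3498 and 3378 bp. In OPCs 145 of 13335 coding genes had a peak at least as wide as that of Pou3f2 and 25 as that of Meis2, and in NFOs 40 and 45 of 9561. Neither gene had an H3K27me3 peak near a TSS at any stage. Meis1, the paralog of Meis2, had H3K4me3 peaks of up to 7089, 7224 and 1939 bp, and next to them H3K27me3 peaks of up to 712 bp in OPCs and 591 bp in NFOs.

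**Figure D3:**
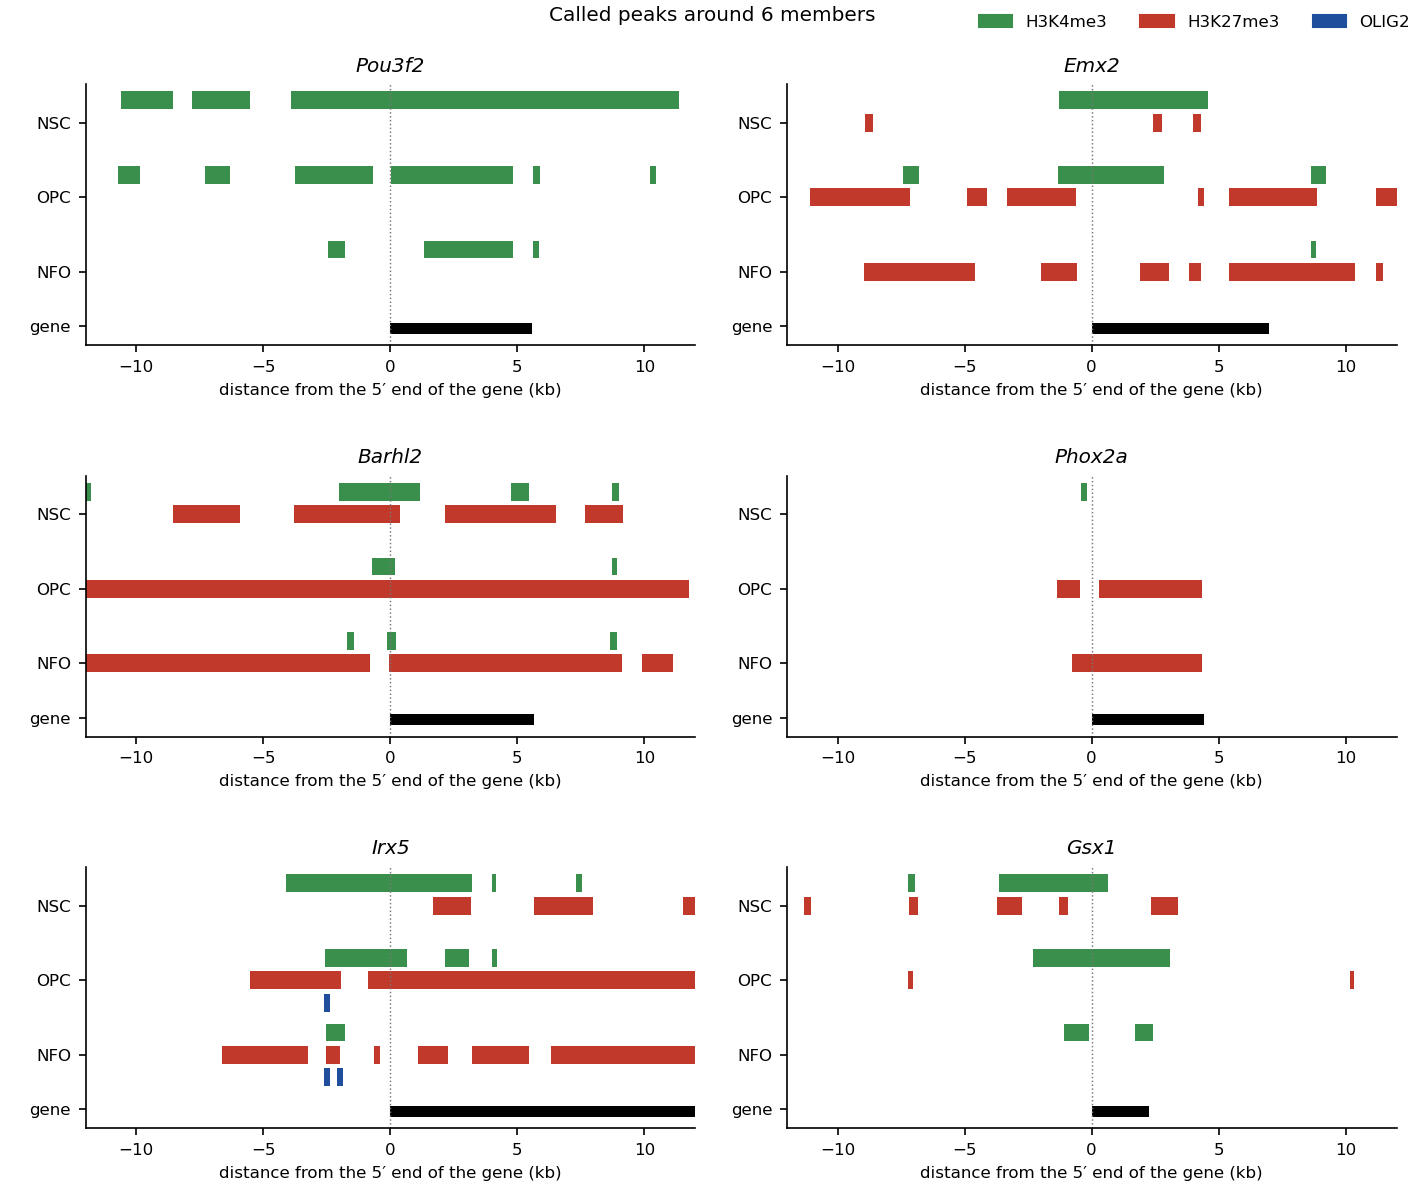
Called peaks of H3K4me3 (green), H3K27me3 (red) and OLIG2 (blue) in NSCs, OPCs and NFOs around Pou3f2, Barhl2, Irx5, Emx2, Phox2a and Gsx1. The horizontal axis is the distance in kb from the 5′ end of the gene in the direction of transcription, and the black bar is the gene, which runs past the right edge at Irx5; peaks at the edges run on. H3K27me3 is absent near the TSS of Pou3f2, spans 27521 bp at Barhl2 in OPCs, and covers 14.7%, 89.4% and 55.2% of the 10 kb around Irx5.

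The question of how H3K27me3 moved between stages was then asked over all members. From NSCs to OPCs 36 of 37 members kept the mark (97.3%), against 47.7% of coding genes that had it, and only Gsx1 lost it. From OPCs to NFOs 40 of 42 kept it (95.2%, against 49.7%), and Six4 and Gsx2 lost it. Of the 10 members without it in NSCs, 6 had it in OPCs, namely Irx6, Otx1, Gbx2, Pitx3, Phox2a and Meis1, and none gained it in NFOs. With a distance of 5 kb from a TSS, Gbx2 and Pitx3 already had H3K27me3 in NSCs. Of the 23 members that were bivalent in NSCs, 22 had H3K27me3 in OPCs (95.7%), against 61.3% of the 1056 bivalent coding genes. Of the 10 members with H3K4me3 alone in NSCs, 6 had H3K27me3 in OPCs, against 13.0% of 11525 coding genes.

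Retention was then described by the width of the NSC peak. An H3K27me3 peak of at least 5 kb was found near a TSS of 25 members in NSCs, 28 in OPCs and 23 in NFOs, out of 280, 287 and 243 coding genes. All 25 such members kept the mark in OPCs and NFOs, and so did 98.9% and 98.6% of the 280 coding genes, so wide domains were kept at members and other genes alike. The median of the widest peak in NSCs was 9972 bp over the 37 members with H3K27me3 and 688 bp over 3312 coding genes. Of the members whose widest NSC peak was under 1 kb (Lhx2, Irx2, Irx3, Emx2, En2, Gsx1 and Gsx2), 6 of 7 kept H3K27me3 in OPCs, against 36.8% of 2029 coding genes, and in OPCs Irx2, Irx3 and En2 of these had a peak of 5 kb or more. The NSC peaks of Lhx2, Irx2, En2 and Gsx2 did not pass the filter on histone peaks. At Gsx2 the NSC and OPC peaks did not overlap.

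The loss of H3K4me3 did not separate the members from other genes in the same way. From OPCs to NFOs 12 of 40 members lost it, against 30.6% of coding genes. They were Irx4, Irx6, Six2, Six3, Six4, Six5, Emx1, Emx2, Gbx2, En2, Barhl1 and Pitx1, and H3K27me3 was left at all of them except Six4 and Six5. From NSCs to OPCs 6 of 43 lost it, against 7.50% of coding genes, namely Lhx5, Six6, Phox2a, Tlx1, Tlx3 and Lmx1b, and all 6 had H3K27me3 alone in OPCs. Irx4, Msx2 and Pitx1 gained H3K4me3 in OPCs, and Six6 and Tlx3 had it again in NFOs. All of these calls hold within 2 kb of a TSS. With a distance of 5 kb, Emx1, Emx2, Gbx2, Six2 and Six3 still had H3K4me3 in NFOs. At that distance Lhx5 and Lmx1b still had it in OPCs, and Msx2 already had it in NSCs.

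Coverage of the 10 kb around the 5′ end gave the same order for H3K4me3. It was lower in NFOs than in NSCs at all 42 members covered at either stage, with a median of 26.0% in NSCs and 5.42% in NFOs. Over 14518 coding genes it was higher in NFOs in only 3.82%, so the members followed the whole list. H3K27me3 coverage was higher in OPCs than in NSCs at 23 of 44 members and lower at 19, and it was higher in NFOs than in OPCs at 10 of 44 and lower at 34. These shares lay near those of all coding genes, of which 49.0% of 6996 were higher in OPCs than in NSCs and 20.8% of 5038 were higher in NFOs than in OPCs, against 52.3% and 22.7% of members. The largest rises from NSCs to OPCs were those of Irx5 (74.7 percentage points), Irx2 (68.9), Otx2 (68.8), Pitx3 (57.7), Gbx2 (56.9) and En2 (56.3), and the largest falls those of Emx1 (from 97.5% to 39.1%) and Lhx6 (from 89.7% to 63.0%). At Otx2 the 10 kb left out NSC peaks at other TSSs.

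**Figure D4:**
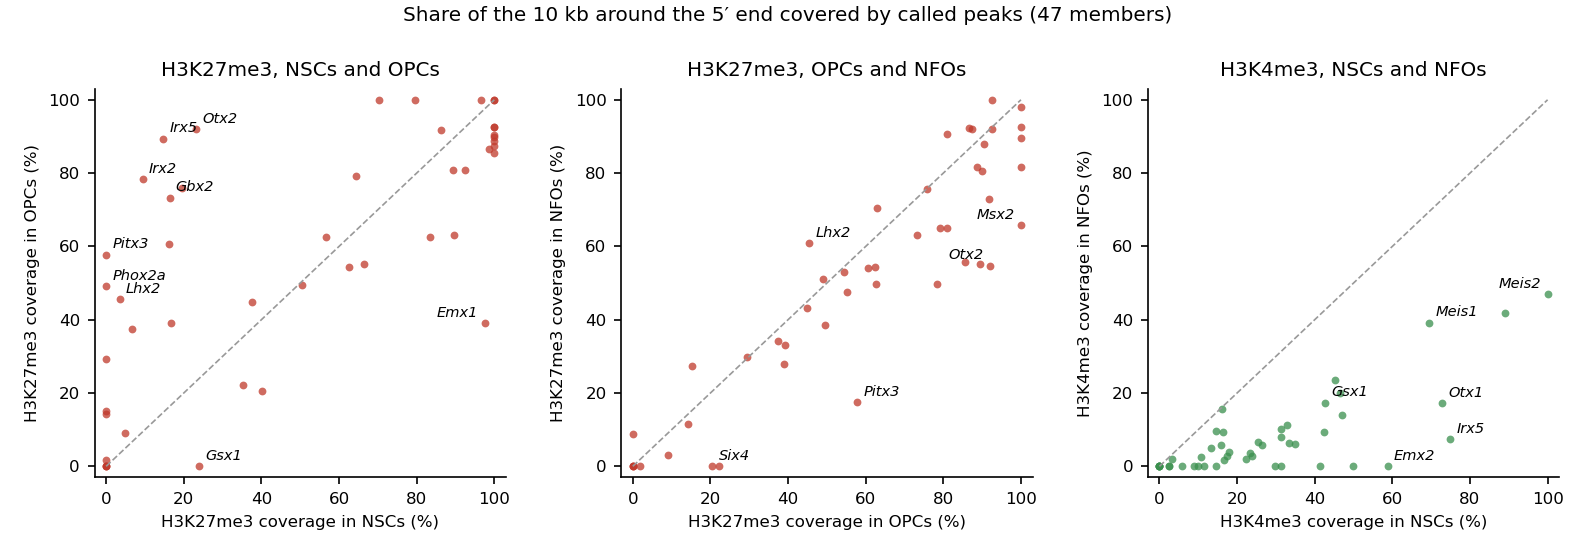
Share of the 10 kb centred on the 5′ end of each member (1 point per gene, n = 47) covered by called peaks, in percent, for H3K27me3 in NSCs and OPCs (left), H3K27me3 in OPCs and NFOs (middle) and H3K4me3 in NSCs and NFOs (right), with the line of equal values dashed. Irx5, Irx2 and Otx2 lie far above the line in the left panel and Emx1 far below it, and in the right panel no member lies above the line.

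Long noncoding RNA genes started close to many members. GENCODE lists 23 lncRNA genes with a TSS within 5 kb of a member TSS, next to 20 members, and 20 of the 23 lie on the other strand. Of these, 13 had H3K27me3 in NSCs, 20 in OPCs and 21 in NFOs. No share over all lncRNA genes was taken, and the 23 were picked for lying next to members, most of which carry the mark. These counts are therefore not a result about lncRNA genes. Emx2os and Crnde, on the strands opposite Emx2 and Irx5, went from H3K4me3 alone in NSCs to bivalent in OPCs, and Lhx1os was bivalent at all 3 stages like Lhx1. Their TSSs lie from 30 to 2881 bp from those of the members, so 1 peak could count for both genes of a pair and the pair cannot be told apart.

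OLIG2, a basic helix-loop-helix factor that drives the oligodendrocyte lineage and binds E-boxes (CANNTG), had called peaks at some of these genes, in a share near that of all coding genes in OPCs and below it in NFOs. Peaks past both limits (fold enrichment above 5, FDR below 0.05) lay in the gene or 5 kb upstream of 6 members in OPCs (12.8%, against 14.9% of coding genes) and 4 in NFOs (8.51%, against 25.0%). Lhx4, Lhx5, Irx4, Irx5, Six4 and Meis1 had 1 peak each in OPCs. Lhx4, Lmx1a and Meis2 had 1 and Irx5 had 2 in NFOs. The members are short genes, with a median length of 8.08 kb, against 17.4 kb for all coding genes and 58.0 and 51.3 kb for those with an OLIG2 peak in OPCs and NFOs, and the part of length in the NFO share was not tested.

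The strongest of these peaks was an NFO peak 1989 bp upstream of Irx5 (chr8:92355518-92355753), with a fold enrichment of 13.9, the 1937th of 14076 NFO peaks. It overlapped both an H3K4me3 and an H3K27me3 peak of NFOs. A second site 2496 bp upstream of Irx5 was called in both cell types, with a fold enrichment of 5.55 in OPCs and 7.44 in NFOs, and was the only OLIG2 site of a member found in both. In each cell type it overlapped H3K4me3 and H3K27me3.

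The peak of Meis2 (chr2:116018234-116018469, intron, NFOs) had a fold enrichment of 11.3, that of Lhx5 (chr5:120433005-120433234, intron, OPCs) 10.4, and that of Irx4 (chr13:73255594-73255823, 4770 bp upstream, OPCs) 8.41. Those at Lhx5 and Irx4 overlapped H3K27me3 peaks of OPCs, 3047 and 219 bp wide, and that of Meis2 overlapped neither mark. The Lhx5 site also lay over the 349 bp H3K4me3 peak of NSCs and a 237 bp H3K27me3 peak of NFOs. Six4 (8.05) and Lhx4 (7.70) had OPC peaks in exons near the 3′ end of the gene, and the OPC peak of Meis1 (chr11:19010415-19010644, exon) had 6.28. The NFO peak upstream of Lhx4 (chr1:155754964-155755199) had 7.66 and that in an intron of Lmx1a (chr1:167755683-167755918) 7.55, and neither overlapped a histone mark. Most of them ranked low: the median fold enrichment of all passing peaks was 8.52 in OPCs and 8.92 in NFOs, which 1 of 6 OPC member peaks and 2 of 5 NFO member peaks exceeded.

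The 101 bases around the summit are shown for the 8 member sites outside UTRs, on the plus strand of mm10 (read from the RefSeq copy of GRCm38), with each CANNTG in capitals. The motif is its own reverse complement, so both strands were searched. It occurred in 4 of the 6 OPC member windows and 1 of the 5 NFO windows, and in 45.1% and 42.3% of the windows of all passing OPC and NFO peaks. CAGCTG, an E-box of the helix-loop-helix family, occurred in the OPC windows of Irx4 and Meis1, and in 7.58% of OPC and 5.24% of NFO windows. The sites are at chr8:92355586-92355686 (Irx5, NFO), chr8:92355073-92355173 (Irx5, OPC), chr2:116018302-116018402 (Meis2), chr5:120433070-120433170 (Lhx5), chr13:73255659-73255759 (Irx4), chr11:19010480-19010580 (Meis1), chr1:155755032-155755132 (Lhx4) and chr1:167755751-167755851 (Lmx1a).
Irx5, NFO: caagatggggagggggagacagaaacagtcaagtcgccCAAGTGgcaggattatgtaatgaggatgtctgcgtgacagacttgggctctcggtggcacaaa
Irx5, OPC: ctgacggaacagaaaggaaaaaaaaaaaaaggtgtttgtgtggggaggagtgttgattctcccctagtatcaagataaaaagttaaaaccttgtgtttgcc
Meis2, NFO: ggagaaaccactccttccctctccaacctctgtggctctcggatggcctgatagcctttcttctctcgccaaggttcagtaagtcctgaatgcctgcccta
Lhx5, OPC: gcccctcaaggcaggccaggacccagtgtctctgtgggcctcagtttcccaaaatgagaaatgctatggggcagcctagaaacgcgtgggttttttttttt
Irx4, OPC: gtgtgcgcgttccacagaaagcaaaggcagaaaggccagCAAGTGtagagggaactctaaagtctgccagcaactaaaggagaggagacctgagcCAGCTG
Meis1, OPC: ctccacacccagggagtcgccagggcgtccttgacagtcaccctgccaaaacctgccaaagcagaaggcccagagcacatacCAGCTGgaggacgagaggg
Lhx4, NFO: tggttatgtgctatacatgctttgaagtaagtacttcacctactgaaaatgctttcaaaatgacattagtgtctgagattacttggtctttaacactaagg
Lmx1a, NFO: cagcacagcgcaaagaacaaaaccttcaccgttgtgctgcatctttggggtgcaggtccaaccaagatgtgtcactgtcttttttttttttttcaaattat

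Genes that encode partners of these factors were compared with them. The 23 partner genes were the LIM adaptors Ldb1 and Ldb2, the LIM-only genes Lmo1 to Lmo4, a set of TALE partners that includes Pknox1, Pknox2 and Meis3, the cofactors Eya1 to Eya4, Dach1 and Dach2, and the Groucho corepressors Tle1 to Tle4. H3K27me3 was called at 5 of them in NSCs (21.7%), 10 in OPCs (43.5%) and 6 in NFOs (26.1%). Peaks of H3K4me3 lay at 22, 21 and 19 of them. H3K4me3 alone was the state of 17, 12 and 14 of them. None had an H3K27me3 peak of 5 kb or more, and the widest were those of Tle1, 4169 bp in OPCs and 4770 bp in NFOs.

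Eya4 and Dach1 were the only partner genes with H3K27me3 at all 3 stages, against 34 of the 47 members. Eya4 had H3K27me3 peaks of up to 968, 2890 and 2555 bp, and Dach1 of up to 304, 1549 and 1096 bp. OLIG2 peaks lay at 4 of the 23 partner genes in OPCs and at 15 in NFOs, against 14.9% and 25.0% of coding genes. The partner genes have a median length of 85.8 kb, against 8.08 kb for the members, and the part of length in these counts was not tested.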

How the data were processed

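The authors mapped reads to mm10 with Bowtie2, kept unique reads, excluded the ENCODE blacklist and called OLIG2 peaks with SPP and, with MACS2, broad peaks of both histone marks. The deposited peak lists give each peak's position, its fold enrichment (a ratio over the input) and the −log10 of its FDR, and hold no read counts, so depth is unknown. The authors' RIP-Seq lists, made with ASPeak, give tag counts, RPKM values and p-values of called sites. Versions are not given in the sources used here. Input libraries and NSC OLIG2 peaks were not used here.

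All listed histone peaks within 2 kb of any TSS of GENCODE M21 set the state of each of 21951 protein-coding genes, with an overlap of at least 1 bp counted as bivalent. The histone filter of the study's methods (FDR below 0.05, fold enrichment above 3.5) was run as an alternative. OLIG2 peaks had a fold enrichment above 5 at an FDR under 0.05, and lay in the gene or 5 kb upstream. Coverage was the share of the 10 kb centred on the 5′ end under peaks. Python 3.11.15, NumPy 2.4.6, pandas 2.3.3, pysam 0.24.0 and Matplotlib 3.10.9 were used. The state code was tested on simulated data and recovered 2000 of 2000 genes. Samples were grouped by their titles, with 1 library per condition, and no test was made.

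The members, the partner and marker lists and the rules were chosen with earlier results of these data known. A marker and a partner gene of these lists are not reported here by name. Values were given for every member whose state changed, with an OLIG2 peak, among the 5 widest H3K27me3 peaks of a stage, or with H3K4me3 alone throughout. Alternatives changed the distance, filter, TSS set, definition of bivalency and OLIG2 rule, and 2 were added after seeing the data (bivalent domains merged over the genome, and H3K27me3 at all stages under each filter).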

Additional observations from a re-analysis of the deposited data

Results flagged for a closer look

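The RIP-Seq lists, in which RNA bound to OLIG2 was precipitated and sequenced, were outside the comparisons above and held called sites at 2 members. Pitx3 had 3 sites with 22 tags in the OLIG2 list and none in the IgG control list, which is why it is given here although it lies outside the main measurement. Its largest site held 9 tags and its RPKM was 0.0168. Lmx1a had 1 site with 9 tags in the OLIG2 list and 2 sites with 16 tags in the IgG list. Sites lay at 543 coding genes in the OLIG2 list and 547 in the IgG list, with 1 library each, so no difference was tested and 22 tags against no listed site is not shown to exceed the control. The labels title these samples as NFO whereas the study's methods describe the assay in NSCs, so the cell type is uncertain.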

How the results depend on the processing

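Of 88 alternatives, 73 gave a count within 1.5 times that reported and 15 did not. In 1 alternative the members' share crossed that of all coding genes: with a fold enrichment above 5, H3K4me3 in OPCs lay at 22 members (46.8%, against 49.1% of coding genes), so the excess reported above was not seen. With the same limit, H3K27me3 lay at 17 members in NSCs (2.43% of coding genes) and 23 in NFOs (2.60%), and at all stages in 13 instead of 34 (1.01%, chosen after seeing the data). H3K4me3 then lay at 19 members in NFOs (21.9%), and 10 were bivalent in NSCs (1.02%). With 1 bivalent domain enough for the call there were 29 bivalent members in OPCs (5.45%), 22 in NFOs (2.90%) and 19 with the same state at all stages (60.5%). Merging bivalent domains over the genome, added after seeing the data, gave 12 bivalent members in NFOs (1.56%), and a distance of 5 kb gave 7 in OPCs (1.95%). OLIG2 peaks within 50 kb on both sides lay at 14 members in OPCs (38.9% of coding genes) and 26 in NFOs (59.9%), and with a fold enrichment above 10 at 1 (6.42%) and 2 (12.6%). The percentages from H3K27me3 on are shares of all coding genes under the same setting. The cause of these differences was not tested. With 1 library per condition, unknown depth and reads single in NSCs and paired in OPCs and NFOs, differences between stages cannot be told apart from differences between libraries. No paired analysis was possible because no result comes from a test.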
